A study of Homo sapiens with 14 samples.

Results

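This section describes the transcriptional response of H1792 cells to AMG900 across gene functions. H1792 is an established human lung adenocarcinoma cell line, and AMG900 is a small molecule that inhibits the aurora kinases. The comparison took in 6 of the 14 RNA sequencing libraries of the series, chosen by their labels: 3 from H1792 cells given 0.1 µM AMG900 and 3 from H1792 cells given the solvent DMSO, all collected 48 h after treatment. Cells of both groups were grown in the same medium and seeded the day before in culture dishes, and each library was made from total RNA of 1 line without any genetic change named in the labels. Nothing in the labels says that the replicate dishes came from separate experiments, so p-values here measure only the spread between these dishes.

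Aurora A acts at centrosomes and the spindle poles. Aurora B, in the chromosomal passenger complex with INCENP, survivin and borealin, corrects faulty attachment of chromosomes to the spindle and is needed for cytokinesis. Cells that divide without aurora B activity often fail to separate and become polyploid, and inhibition of the kinases is known to act first on protein phosphorylation rather than on transcripts. The transcripts measured at 48 h therefore describe the state of cells well after the drug was added.

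The H1792 libraries held 42810734 to 79984064 counts, of which 0.101% to 0.117% fell on 28 rows whose symbols had been turned into dates and which were left out. Of 26732 genes listed, 15017 passed the filter on low counts and were tested. Levels are given as CPM, counts scaled to library size with TMM factors, and a gene was called when its edgeR quasi-likelihood adjusted p was under 0.01. The first principal component took up 66.3% of the variance and separated the treatments, and the second took up 12.1%. The label was checked against lineage markers: in DMSO cells KRT7 stood at 979 CPM, KRT8 at 456 and KRT18 at 261, and the mesenchymal genes VIM, CDH2 and FN1 at 2440, 468 and 3969 CPM, whereas EPCAM stood at 3.40 and CDH1 at 0.681. NKX2-1 and the leukocyte marker PTPRC did not pass the filter. Of 4 tested leukocyte markers CD68 was upregulated, and the list summed to 99.0 to 114 CPM in DMSO libraries and 169 to 194 CPM in AMG900 libraries. Of 4 endothelial markers PECAM1 and CDH5 were upregulated, with sums of 4.79 to 16.7 and 9.20 to 9.96 CPM. Of 6 tested fibroblast markers 4 were downregulated, with sums of 232 to 251 and 136 to 144 CPM. After correction for GC content, described below, 2 fibroblast markers were called lower. The same correction left 1 of the 3 endothelial markers with a known GC content called higher. All of these were measured in a cell line, and their part in the results was not tested.

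The upregulated DEGs numbered 2439, or 16.2% of tested genes, and the downregulated DEGs 2827, or 18.8%. A change of at least 2-fold was reached by 476 upregulated genes (3.17%) and 781 downregulated genes (5.2%). The balance between directions depended on the fit, since correction for GC content, described below, gave 2177 up and 3257 down and scaling to total counts 1859 and 3229. The median absolute log2 fold change of called genes was 0.60, so most changes were moderate, and the 3 AMG900 libraries did not overlap the 3 DMSO libraries in 5265 of the 5266 called genes, against 59.7% of all tested genes. The median log2 fold change over all tested genes was 0.01. These percentages are the background against which the counts without GC adjustment are read for each group of genes below.

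The largest increase among well-counted genes belonged to HIST1H4C, a replication-dependent histone H4 gene (hg19, chromosome 6, 26104161 to 26104565, plus strand). It stood at 2.25, 2.54 and 2.62 CPM in the DMSO libraries and at 47.3, 43.4 and 38.5 CPM in the AMG900 libraries. The groups lay far apart, a 17.5-fold increase with a log2 fold change of 4.13 ± 0.11 (SE, edgeR adjusted p = 1.19e-08). CNN1, which encodes the smooth muscle protein calponin, rose from 0.286 ± 0.0951 to 3.65 ± 1.01 CPM (SD, n = 3), and KRT17, a keratin of basal and stressed epithelium, from 0.517 ± 0.0829 to 4.39 ± 0.575 CPM. These are low levels, and both genes were close to 0 CPM before treatment. The same leading set held SERPIND1 (heparin cofactor II, 6.68-fold), DHRS2 (5.37-fold), the liver and gut transcription factor CREB3L3 (5.18-fold), the retinoic acid carrier CRABP2 (4.03-fold), cytoglobin CYGB (3.68-fold) and ID2 (3.70-fold), an inhibitor of helix-loop-helix factors. CRABP2 was the most evenly measured of them, at 11.5, 9.48 and 9.07 CPM with DMSO and 41.7, 40.2 and 39.7 CPM with AMG900.

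The genes with the largest decreases were of a different kind, since many of them were copies of highly expressed genes. RPL39, a protein of the large ribosomal subunit (hg19, chromosome X, 118920467 to 118925593, minus strand), stood at 52.6, 47.9 and 46.0 CPM in the DMSO libraries and at 4.78, 4.65 and 4.29 CPM in the AMG900 libraries. This was a 10.7-fold decrease (log2 fold change -3.41 ± 0.09, SE, edgeR adjusted p = 1.19e-08). The same set held genes that their names do not mark as copies. LYPLA1, a depalmitoylating thioesterase, stood at 10.9 ± 0.118 CPM with DMSO and 1.76 ± 0.0208 CPM with AMG900. UBA6, an E1 enzyme of the ubiquitin pathway, stood at 7.27 ± 1.22 and 1.26 ± 0.0817 CPM. The phosphatase MTMR6 was 5.42-fold lower, and the vesicle cargo protein TMED7 5.08-fold lower. LYPLA1, UBA6, MTMR6 and TMED7 have transcripts of 35.6% to 36.4% GC, in the lowest GC bin described below. In that order their log2 fold changes were -2.63, -2.52, -2.44 and -2.34. After adjustment for GC content they were -2.03, -1.86, -1.84 and -1.71, and all were still called. Top genes were chosen among those without overlap between groups, so their separation follows from that choice.

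A processed pseudogene is an intronless copy of a messenger RNA that was inserted elsewhere in the genome. Of 115 such genes tested, 63 (54.8%) were downregulated, 53 of them by at least 2-fold, and 1 was upregulated, with a median log2 fold change of -1.16. Other pseudogenes did not share this pattern, with 20 upregulated and 12 downregulated of 142. Names linked 93 of the processed pseudogenes to 85 parent genes. The log2 fold change of the copy lay below that of its parent in 77 of 93 pairs, and the median log2 fold change was -1.06 for copies and -0.01 for parents. Among parents, 25 were upregulated and 18 downregulated. This grouping was noticed after the values were seen.

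**Figure D1:**
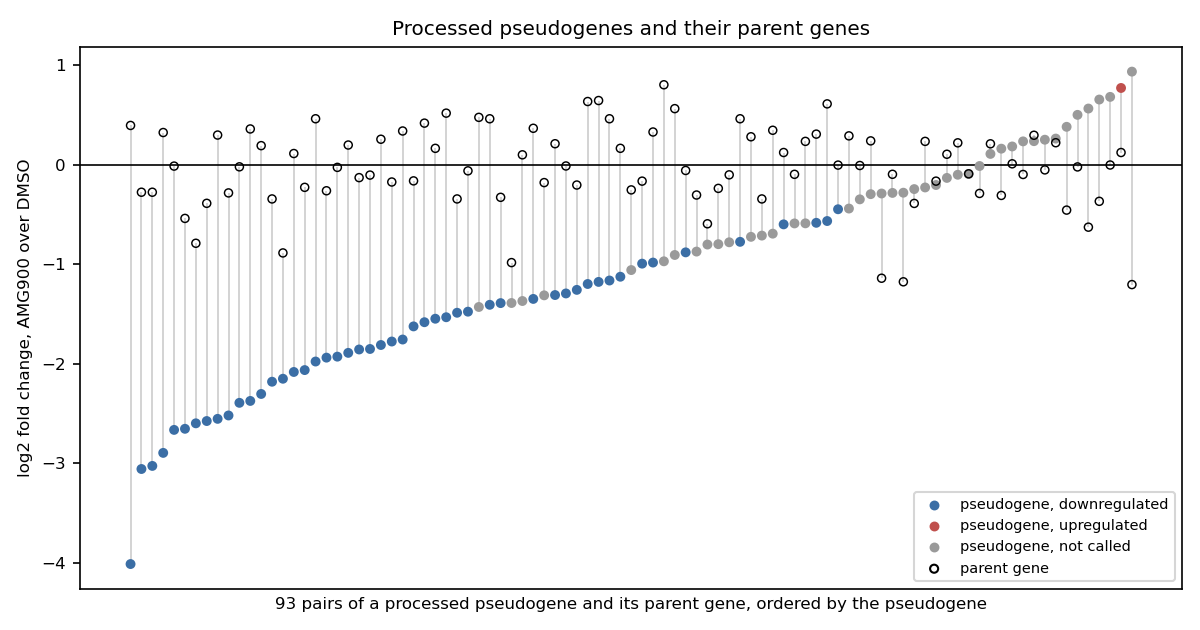
Log2 fold change (AMG900 over DMSO) of 93 processed pseudogenes, ordered by their own value, and of the parent gene of each. Filled points are pseudogenes coloured by call, open circles are parents and grey lines join a pair; 50 of the pseudogenes were downregulated and 1 was upregulated, while parents lay on both sides of 0.

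Single pairs show the size of the gap. ACTG1P20, a copy of the cytoplasmic actin gene ACTG1, stood at 45.5, 26.6 and 30.4 CPM with DMSO and at 3.31, 4.99 and 4.44 CPM with AMG900, whereas ACTG1 itself went from 4062 ± 236 to 3355 ± 72.7 CPM. ANXA2P2 fell from 178 ± 29.0 to 79.7 ± 10.4 CPM while its parent ANXA2, a membrane-binding annexin, rose from 1565 ± 51.2 to 2156 ± 25.4 CPM. UBE2MP1 was 3.71-fold lower and its parent UBE2M, a NEDD8-conjugating enzyme, 1.15-fold higher, although its GC-adjusted log2 fold change was -0.14. Some coding genes that resemble a highly expressed relative were lower too, picked from the largest decreases or after their values were seen. NACA2 was 5.25-fold lower beside NACA at 1.19-fold higher, and SETSIP was 9.30-fold lower beside SET at 1.96-fold lower. PABPC3 was 3.19-fold lower beside PABPC1, whose log2 fold change of 0.32 was not called. POTEI, which carries an actin domain, was 11.1-fold lower, but its DMSO libraries stood at 31.0, 8.04 and 8.96 CPM, so the first of them carried much of that mean. How reads that match both a copy and its parent were counted is not given in the sources used here. The levels of these genes are therefore uncertain, and whether the copies themselves were transcribed was not tested. There were 303 coding genes with most of their 50-base windows in common with another gene. Of these, 53 (17.5%) rose and 36 (11.9%) fell, at a median log2 fold change of 0.10. Among coding genes that shared 5 to 25% of windows, 15.1% rose and 23.6% fell. Among those without a named processed pseudogene, 16.6% rose and 18.1% fell. With 1 such copy the shares were 13.8% and 27.6%, with 2 to 4 copies 14.6% and 34.4%, and with 5 or more 30.5% and 29.7%. With processed pseudogenes taken out before the fit, the calls among the other genes came to 2408 upregulated and 2775 downregulated.

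Fold change also followed the base composition of the transcript. When tested genes were ordered by GC content into 10 bins of equal size, in the lowest bin 45.9% were downregulated and 1.88% upregulated, with a median log2 fold change of -0.54. In the highest bin, 2.92% were downregulated and 29.1% upregulated, and the median was 0.24. Across the 14373 tested genes with a known transcript, Spearman's rho between log2 fold change and GC content was 0.48, given as a description since genes are not independent replicates and share their libraries. A fit with a GC offset for each library left 2177 upregulated and 3257 downregulated genes of 14373, with a median log2 fold change of -0.03. These values are the background for every GC-adjusted count and median below. They hold a larger share of downregulated genes than the fit without offsets. In simulated counts a linear GC trend was added to the AMG900 libraries, few genes were otherwise changed, and calls due to the trend were counted as false. By that definition most calls of the fit without GC offsets were false, while the fit with offsets made few false calls. That outcome followed from the setup, since the trend was added by GC content and removed by it. Whether the trend in the real libraries is technical was not tested. Calls of genes with extreme GC content depend on which fit is used, a choice that their adjusted p does not cover. Counts or medians from the GC fit are given below as GC-adjusted values beside each list where they changed the sign of the median, the direction with more calls, or a count by more than 1.5 times.

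**Figure D2:**
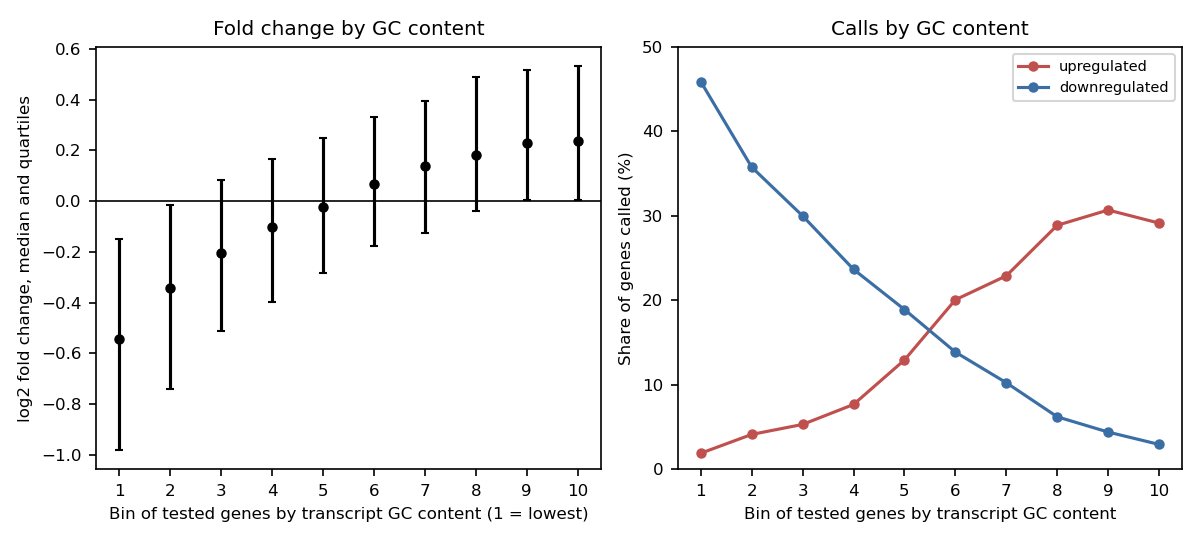
Left, median log2 fold change with quartiles in 10 equal bins of tested genes ordered by transcript GC content. Right, the percentage of genes up- and downregulated in the same bins; downregulated genes went from 45.9% in the lowest bin to 2.92% in the highest.

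The gene groups that follow are lists of textbook members, and some genes stand in more than 1 list. Besides the genes singled out below, the named genes ACTG1, ADM, ANXA2, ANXA2P2, CCL26, CLDN3, COL6A1, COL6A2, CSF2, CXCL5, CXCL6, H19, IRF1, NACA, PABPC1, PABPC3, RPS2, SET, TIMP1, UBE2M and UBE2MP1 were chosen after their values were seen. The plot of calls by list sets each beside the background.

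**Figure D3:**
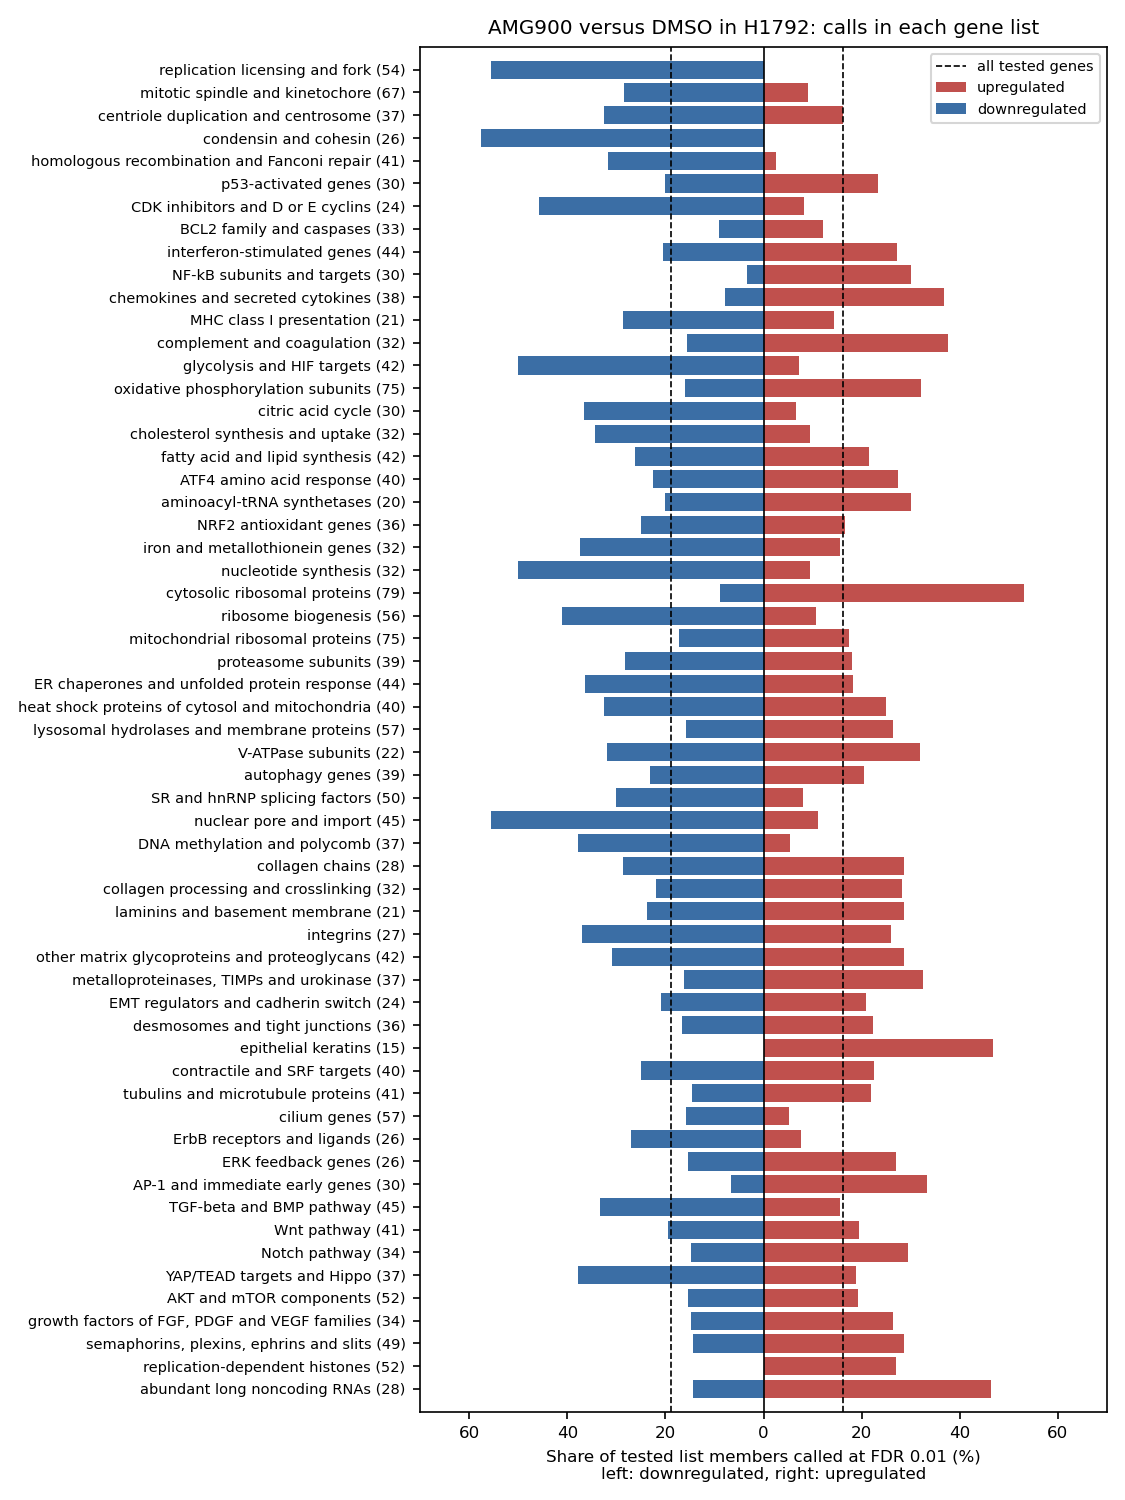
Percentage of tested members upregulated (red, right) and downregulated (blue, left) in each functional gene list with 15 or more tested members, with the number tested in brackets; dashed lines mark 16.2% and 18.8%, the shares over all tested genes. Cytosolic ribosomal proteins (53.2%), keratins (46.7%) and abundant long noncoding RNAs (46.4%) reached far to the right, and the condensin and cohesin (57.7%), replication (55.6%) and nuclear pore lists (55.6%) far to the left.

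The drug's targets were little altered as transcripts. AURKA stood at 76.7, 91.5 and 87.5 CPM in DMSO libraries and at 89.7, 93.8 and 97.7 CPM in AMG900 libraries, which overlap, and was not called (log2 fold change 0.14 ± 0.07, edgeR adjusted p = 0.131). AURKB went from 140 ± 9.90 to 165 ± 3.92 CPM and was called upregulated (0.24 ± 0.06, edgeR adjusted p = 0.00838), although the GC-adjusted value of 0.02 was not. After the same adjustment AURKA was called, at 0.28. AURKC stayed near 1 CPM, at 1.02 ± 0.190 and 1.21 ± 0.305. INCENP, the scaffold of the passenger complex, had a log2 fold change of 0.10 and was not called. Of 8 genes of the complex and its kinases, 1 was upregulated and none was downregulated in edgeR (adjusted p under 0.01). None was lower at an unadjusted p under 0.05 or in DESeq2 either, but the GC-adjusted fit called 1 higher and 1 lower.

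Genes that copy DNA were lower. In the list of replication licensing and fork genes 30 of 54 (55.6%) were downregulated and none was upregulated in edgeR (adjusted p under 0.01), with a median log2 fold change of -0.32 and a GC-adjusted median of -0.35. At an unadjusted p under 0.05, 2 of them were higher, and in DESeq2 none was, whereas 1 was called higher after the GC adjustment, 2 with length added and 1 without DMSO replicate 1. MCM2, a subunit of the replicative helicase, stood at 129, 124 and 124 CPM with DMSO and at 81.7, 82.4 and 83.6 CPM with AMG900, a 1.52-fold decrease without overlap. PCNA, the sliding clamp, fell from 19.1 ± 0.751 to 12.2 ± 0.853 CPM, the clamp-loader gene RFC3 from 4.70 ± 0.338 to 1.98 ± 0.144 CPM, and ORC2, of the origin recognition complex, from 5.14 ± 0.252 to 2.34 ± 0.565 CPM. The licensing factor CDC6 did not follow them, with a log2 fold change of -0.10 that was not called. Enzymes that supply nucleotides fell alongside, 16 of 32 downregulated and 3 upregulated (median -0.29, GC-adjusted -0.40). The salvage kinase DCK stood at 7.83, 7.61 and 7.48 CPM with DMSO and 2.22, 2.95 and 2.75 CPM with AMG900. RRM1, the large subunit of ribonucleotide reductase, was 1.98-fold lower, and the purine enzyme ADSS went from 11.3 ± 0.786 to 3.61 ± 0.296 CPM.

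Mitotic genes divided into a majority that was not called and a minority that fell. Of 67 spindle and kinetochore genes 19 (28.4%) were downregulated and 6 upregulated, and the median of -0.15 became 0.01 after the GC adjustment, with 16 down and 14 up. PLK1, CCNB1 and MKI67, the kinase, cyclin and proliferation marker most used to mark dividing cells, had log2 fold changes of -0.03, -0.01 and 0.08 and were not called. Their GC-adjusted values were -0.28, 0.24 and 0.08, of which those of PLK1 and CCNB1 were called. MAD2L1 of the spindle checkpoint stood at 35.7, 31.1 and 33.2 CPM with DMSO and at 10.6, 13.7 and 11.6 CPM with AMG900 (2.79-fold lower). The cytokinesis exchange factor ECT2 fell from 3.65 ± 0.470 to 1.08 ± 0.258 CPM, and the checkpoint kinase TTK from 2.84 ± 0.824 to 0.981 ± 0.0809 CPM. Cyclin A2, CCNA2, stood at 42.2, 36.1 and 40.7 CPM with DMSO and at 15.8, 15.7 and 16.2 CPM with AMG900 (2.50-fold lower). In the other direction KIF20A, a kinesin of the central spindle, rose from 147 ± 23.7 to 208 ± 4.13 CPM, and UBE2C and UBE2S, the ubiquitin-conjugating enzymes of the anaphase-promoting complex, rose 1.29-fold and 1.37-fold. CCNA2, KIF20A, UBE2C and UBE2S were singled out after their values were seen.

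**Figure D4:**
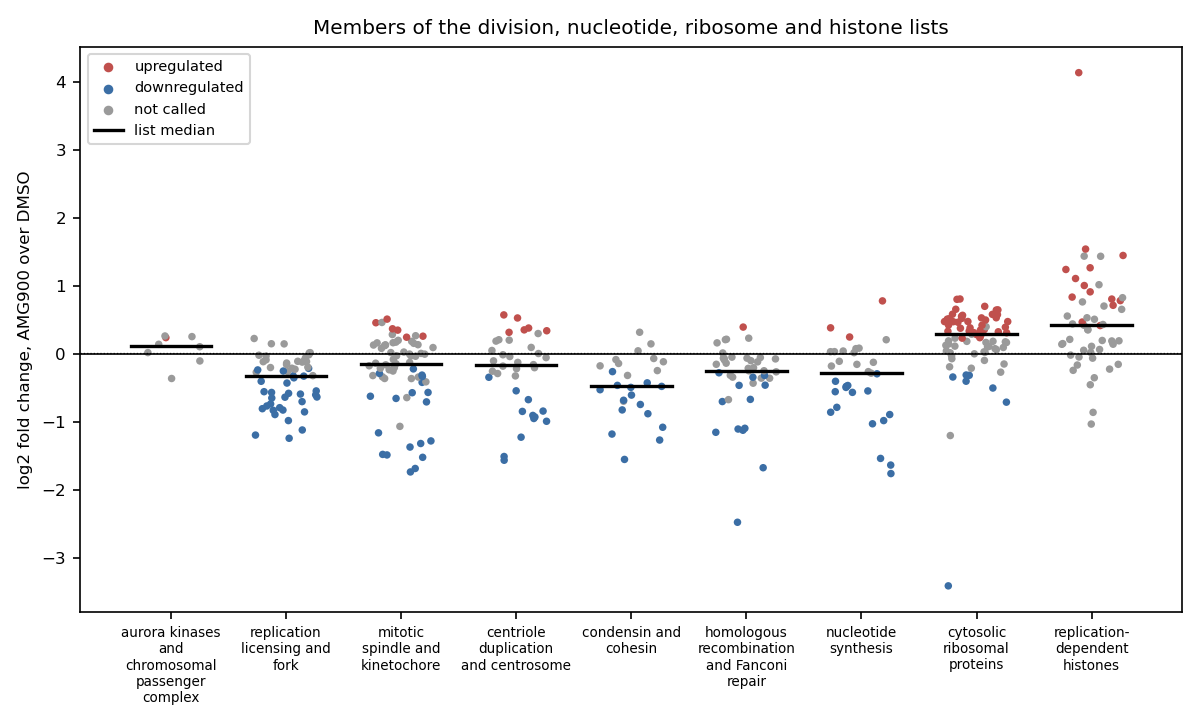
Log2 fold change (AMG900 over DMSO) of each tested member of 9 gene lists, coloured by call, with the list median as a bar. In the fit without GC offsets no replication or condensin and cohesin gene was upregulated and no replication-dependent histone was downregulated, while mitotic genes spread to both sides of 0.

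Structural maintenance and repair genes leaned the same way as replication. Of 26 condensin and cohesin genes 15 (57.7%) were downregulated and none upregulated in edgeR (adjusted p under 0.01), at a median of -0.47, which moved to -0.22 with 10 down and 2 up after the GC adjustment. Of these genes 1 was higher at an unadjusted p under 0.05 and in DESeq2. The condensin ATPase SMC2 went from 9.47 ± 1.41 to 4.17 ± 0.517 CPM. The cohesin subunits SMC3 and STAG2 were 1.38-fold and 1.53-fold lower, but their GC-adjusted log2 values of 0.07 and -0.02 were not called. Of 41 genes of homologous recombination and Fanconi repair 13 fell and 1 rose, or 11 and 3 after the GC adjustment, and the median went from -0.25 to -0.07. The checkpoint kinase ATR went from 3.77 ± 0.848 to 1.70 ± 0.455 CPM. Centriole and centrosome genes split into 6 up and 12 down of 37, and PLK4, the kinase that starts centriole duplication, went from 3.48 ± 0.208 to 1.82 ± 0.143 CPM.

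Promoter sequence was looked at for these groups because division genes are known to share short elements, among them CCAAT boxes bound by NF-Y and the cell cycle homology region (CHR) bound by DREAM and MuvB complexes. RefSeq windows (GRCh38.p14) were matched by symbol for 11670 of the 15017 tested genes, and the 250 bases before each start were searched on both strands. CCAAT was found in 70% of 60 mitotic windows and 56.2% of 48 replication windows, against 34.6% of all. A CHR, searched as TTTGAA or TTTAAA, was found in 56.7% of mitotic windows and 6.25% of replication windows, against 14.3% of all. The E2F letters TTTCCCGC, TTTGGCGC or TTTCGCGC were in 29.2% of replication windows and 6.67% of mitotic ones, against 3.77%. Over all upregulated and downregulated genes, CCAAT was found in 34.6% and 35.7%, the CHR in 11.2% and 15.7%, and the E2F letters in 3.31% and 4.68%. The promoters of CCNA2, which fell, and KIF20A, which rose, are shown as the 150 bases before the start with matches in capitals.
CCNA2 (chr4:121823884-121824033, minus strand): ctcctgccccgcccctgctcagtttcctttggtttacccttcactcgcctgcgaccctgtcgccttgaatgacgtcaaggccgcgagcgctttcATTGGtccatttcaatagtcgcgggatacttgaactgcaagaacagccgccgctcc
KIF20A (chr5:138178962-138179111, plus strand): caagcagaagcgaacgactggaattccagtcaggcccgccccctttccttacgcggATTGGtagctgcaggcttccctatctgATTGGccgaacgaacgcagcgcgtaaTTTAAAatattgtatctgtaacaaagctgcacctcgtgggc
In CCNA2 the capitals mark 1 reversed CCAAT that begins 56 bases before the start. Its sequence also holds CTTGAA, which was not among the CHR letters searched. The absence of a marked CHR therefore does not show that CCNA2 lacks one. In KIF20A they mark reversed CCAAT boxes that begin 94 and 67 bases before the start, and the CHR letters TTTAAA at 41 bases. A match of letters is a description of these windows and not a measured binding site. The letters of the CHR and of a TATA element can overlap.

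Replication-dependent histones, which package newly made DNA, did not fall with the replication genes, but their lean upward depended on the fit. Of 52 tested, 14 (26.9%) were upregulated and none was downregulated in edgeR (adjusted p under 0.01), while 1 was lower at an unadjusted p under 0.05 and none in DESeq2. Their median log2 fold change was 0.42, and 0.11 after the GC adjustment. In the adjusted fit 9 of the 48 with a known GC content were called up and none down. That share up was near the one over all genes, 2177 of 14373. Beside HIST1H4C, the abundant linker histone HIST1H1C stood at 799, 686 and 744 CPM with DMSO and at 1302, 1275 and 1313 CPM with AMG900, a 1.75-fold increase without overlap. HIST1H2BK rose from 193 ± 17.2 to 331 ± 35.3 CPM. The variant gene H2AFZ, which is expressed independently of replication and makes a polyadenylated RNA, was 1.44-fold lower. H2AFZ and HIST1H2BK were added after their values were seen.

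Genes of cell cycle arrest changed unevenly. Of 30 genes activated by p53, 7 rose and 6 fell, with a median of -0.01, but 5 rose and 9 fell after the GC adjustment. CDKN1A, which encodes the CDK inhibitor p21, stood at 46.3, 44.4 and 44.7 CPM with DMSO and at 69.6, 66.8 and 68.2 CPM with AMG900, and GDF15, a stress-induced secreted factor, rose from 4.71 ± 0.857 to 15.1 ± 0.376 CPM. MDM2 had a log2 fold change of 0.09 and was not called unless adjusted for GC content (0.49), and CCNG1 was 2.63-fold lower. Among 24 CDK inhibitors, G1 kinases and D or E cyclins 11 were downregulated and 2 upregulated. CDK2 itself fell from 37.3 ± 0.488 to 20.6 ± 0.396 CPM, CDKN1B (p27) was 1.27-fold lower, and CDKN1C (p57) rose from 1.32 ± 0.545 to 3.80 ± 0.110 CPM. Of 33 genes of the BCL2 family and caspases 4 rose and 3 fell, or 7 and 5 after the GC adjustment. The pro-survival MCL1 went from 116 ± 3.44 to 75.1 ± 3.78 CPM, while the pro-death BH3 genes BBC3 and BMF rose 1.42-fold and 1.52-fold. BCL2L1, the most abundant of those named here, had a log2 fold change of 0.16 and was not called.

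Chemokines and secreted cytokines, the messages by which tumour cells act on immune and stromal cells, leaned upward. Of 38 tested members 14 (36.8%) rose and 3 fell, 9 of the increases by at least 2-fold. The median was 0.25, and the GC adjustment moved it to 0.49 with 18 up and 1 down. The T cell chemoattractant CCL5 stood at 2.61, 3.57 and 2.83 CPM with DMSO and at 16.1, 15.4 and 14.7 CPM with AMG900 (5.15-fold, log2 fold change 2.37 ± 0.12, SE, edgeR adjusted p = 1.03e-06). IL11, an interleukin of the gp130 family (hg19, chromosome 19, 55875750 to 55881831, minus strand), stood at 17.5, 16.0 and 18.4 CPM and then at 64.4, 69.1 and 62.5 CPM (3.78-fold). IL1B, the most abundant riser, went from 254, 314 and 285 CPM to 896, 863 and 846 CPM (3.05-fold). In all 3 genes the lowest AMG900 library lay far above the highest DMSO library.

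The colony-stimulating factors CSF3 and CSF2 rose 3.40-fold and 2.19-fold, to 24.0 ± 0.549 and 424 ± 17.1 CPM. LIF, of the same cytokine family as IL11, rose from 99.5 ± 2.69 to 194 ± 6.80 CPM, and the chemokines CCL2, CCL26 and CX3CL1 rose 1.78-fold, 2.64-fold and 5.11-fold. CX3CL1 was at most 4.22 CPM in any library. The neutrophil chemokines did not rise with these: CXCL6 was 1.33-fold lower, CXCL1 was not called at a log2 fold change of 0.06, and CXCL5 was called lower at -0.24 but higher at 0.31 after the GC adjustment. IL6 was not called, at 106 ± 9.86 and 91.7 ± 0.220 CPM.

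**Figure D5:**
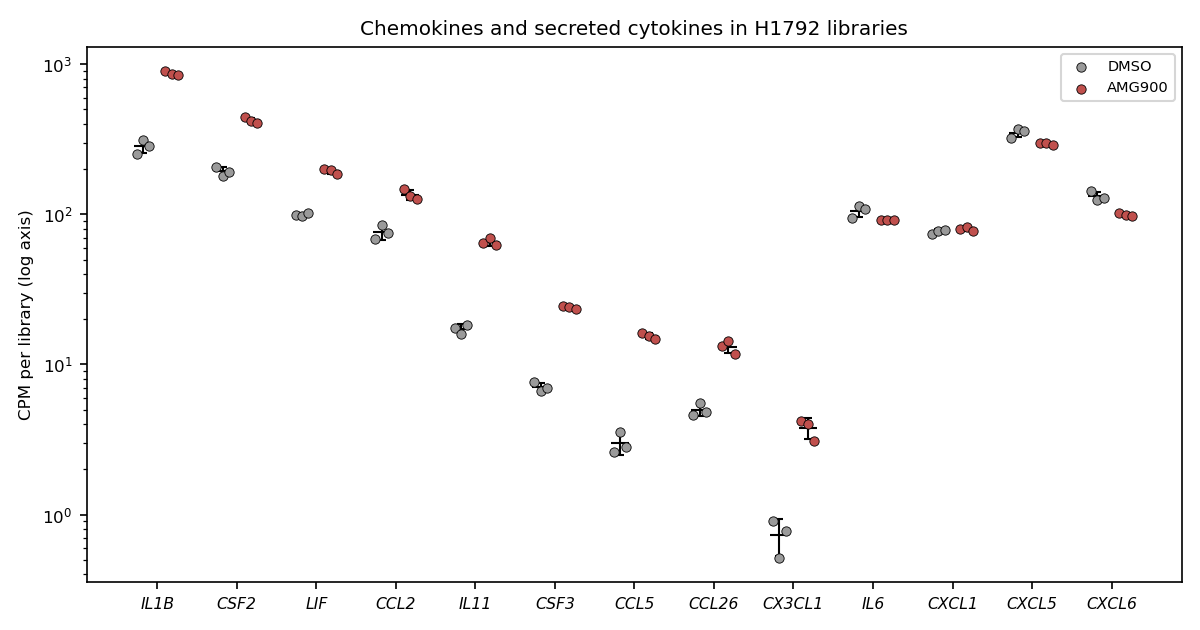
CPM of 13 cytokine and chemokine genes in each H1792 library on a log axis, DMSO in grey and AMG900 in red, with the mean and SD (n = 3) as bars. The first 9 genes were called upregulated, CCL5 from 3.00 to 15.4 CPM, while IL6 and CXCL1 were not called and CXCL5 and CXCL6 lay lower. The groups of those 9 did not overlap, as held for 5265 of the 5266 called genes.

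The promoter of IL11, chosen after its matches were seen, is printed because it holds both an AP-1 and a TATA element among the genes that rose, as the 150 bases before the start (RefSeq, GRCh38.p14).
IL11 (chr19:55370464-55370613, minus strand): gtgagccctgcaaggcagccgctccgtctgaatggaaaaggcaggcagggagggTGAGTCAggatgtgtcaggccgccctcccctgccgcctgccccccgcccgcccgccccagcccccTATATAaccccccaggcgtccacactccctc
The capitals mark the AP-1 letters TGAGTCA, which begin 96 bases before the start, and TATATA, which begins 31 bases before it. The AP-1 letters TGANTCA were in 28% of 25 cytokine windows and the TATA letters TATAAA or TATATA in 40%, against 4.14% and 7.2% of all windows, and letters of the NF-kB consensus were in 32%, against 3.12%. Among the 8 cytokine windows of upregulated genes the shares were 25%, 37.5% and 25%. Among all upregulated genes 5.69% held the AP-1 letters, and among downregulated genes 4.06%.

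Genes that regulate cytokines were read next. Of 30 NF-kB subunits and targets 9 (30%) rose and 1 fell, or 12 and 6 after the GC adjustment, and 2 of the risers, IL1B and CCL2, are also cytokines. NFKBIA, TNFAIP3 and RELB, which NF-kB induces as its own feedback, had log2 fold changes of 0.11, -0.03 and -0.01 and were not called. AP-1 and immediate early genes had 10 of 30 upregulated and 2 downregulated, with a median of 0.21 that became 0.02 with 9 up and 5 down after the GC adjustment. FOSL1 stood at 385, 392 and 393 CPM with DMSO and at 782, 745 and 717 CPM with AMG900, and JUN rose from 270 ± 15.6 to 425 ± 8.85 CPM. FOSB and EGR1 rose 1.75-fold and 1.59-fold, and ARC, a neuronal immediate early gene, went from 0.838 ± 0.0923 to 2.81 ± 0.143 CPM. FOS itself was not called, at a log2 fold change of 0.35.

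Interferon-stimulated genes went both ways, 12 up and 9 down of 44 with a median of -0.04, or 12 up and 5 down with a median of 0.02 after the GC adjustment. The interferon regulatory factor IRF9 rose from 6.73 ± 0.596 to 13.1 ± 0.503 CPM and IRF1 from 79.5 ± 1.65 to 117 ± 2.20 CPM. The antiviral effectors HERC5 and IFIT5 were 2.34-fold and 2.30-fold lower. ISG15 and IFIT1 were not called. Of 21 genes of MHC class I presentation 3 rose and 6 fell, with the same counts but a median of -0.13 in place of 0.08 after the GC adjustment, and the light chain B2M was not called at 288 ± 45.3 and 324 ± 10.6 CPM. Only CD74 and CTSS of 14 class II genes passed the filter. CD74, the invariant chain, rose from 0.227 ± 0.0608 to 1.55 ± 0.272 CPM, and the class II transactivator CIITA was not tested because it did not pass.

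Complement and coagulation genes held 12 up and 5 down of 32. The plasminogen activator PLAT stood at 31.9, 34.5 and 33.4 CPM with DMSO and at 85.4, 82.3 and 81.4 CPM with AMG900, and SERPINB2, an inhibitor of plasminogen activators, rose 2.23-fold to 94.6 ± 3.17 CPM. Thrombomodulin, THBD, rose from 150 ± 7.61 to 241 ± 2.29 CPM. The complement regulator CD46 fell from 18.1 ± 0.802 to 7.09 ± 0.297 CPM, tissue factor, F3, was 1.39-fold lower, and C3 was not called.

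Glycolysis and hypoxia-inducible factor (HIF) targets were, like nucleotide enzymes, mostly lower, 21 of 42 (50%) down and 3 up, with a median of -0.19 and a GC-adjusted median of -0.28. The oxygen-sensing factor HIF1A (hg19, chromosome 14, 62162231 to 62214977, plus strand) stood at 37.6, 36.7 and 44.9 CPM with DMSO and at 8.48, 9.78 and 8.80 CPM with AMG900. This was a 4.41-fold decrease without overlap (log2 fold change -2.14 ± 0.10, SE, edgeR adjusted p = 4.23e-07). EPAS1, which encodes HIF-2 alpha, stood at 173, 181 and 181 CPM and then at 71.6, 68.9 and 71.6 CPM, a 2.52-fold decrease. The lactate transporter SLC16A1 fell from 66.5 ± 1.44 to 24.3 ± 0.662 CPM and the collagen prolyl hydroxylase P4HA1 from 25.6 ± 2.62 to 8.25 ± 0.358 CPM. The glycolytic enzymes LDHA and PGK1 were 1.63-fold and 1.51-fold lower, CA9 1.39-fold lower and the glucose transporter SLC2A1 1.16-fold lower. The HIF targets ANGPTL4 and ADM went the other way, from 74.0 ± 7.57 to 161 ± 0.552 CPM and from 125 ± 16.7 to 191 ± 0.697 CPM. HIF protein is controlled mainly by its breakdown, and it was not measured here.

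Of 75 subunits of oxidative phosphorylation 24 (32%) rose and 12 fell, or 27 and 20 after the GC adjustment, at a median of 0.06, with NDUFA4 1.43-fold higher and COX7B 3.95-fold lower. Of 30 citric acid cycle genes 11 fell and 2 rose, SUCLA2 going from 3.65 ± 0.440 to 1.05 ± 0.175 CPM. Cholesterol genes had 11 down and 3 up of 32 (14 and 5 after the GC adjustment), with HMGCS1 at 2.05-fold lower, SQLE at 1.39-fold lower and the sterol reductase TM7SF2 at 2.55-fold higher. Fatty acid synthase, FASN, and the desaturase SCD were 1.25-fold and 1.27-fold lower within a list that split 9 up and 11 down of 42.

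Stress-response lists were mixed. Of 40 genes of the ATF4 amino acid response 11 rose and 9 fell, or 9 and 13 with a median of -0.12 after the GC adjustment: DDIT3 (CHOP) went from 77.7 ± 4.85 to 135 ± 2.66 CPM and NUPR1 from 3.56 ± 0.135 to 8.36 ± 0.609 CPM, while the amino acid transporter SLC38A2 fell from 36.7 ± 4.92 to 12.2 ± 0.512 CPM. Aminoacyl-tRNA synthetases split 6 up and 4 down of 20, and 3 up and 2 down of the 16 with a known GC content after adjustment for it. Of 36 NRF2 genes 6 rose and 9 fell, with HMOX1 at 62.0 ± 2.30 and 99.5 ± 3.86 CPM and NQO1 not called. Iron and metallothionein genes had 12 down and 5 up of 32. The transferrin receptor TFRC stood at 64.7, 77.7 and 63.6 CPM with DMSO and at 24.6, 26.5 and 28.5 CPM with AMG900, a 2.59-fold decrease, and the haem enzyme CPOX was 2.37-fold lower.

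Cytosolic ribosomal proteins were the list with the largest share of increases in the plot of calls. Of 79 genes 42 (53.2%) rose and 7 fell, and the median of 0.29 stayed at 0.25 after the GC adjustment. The changes were small in fold and steady between dishes. RPLP0, of the ribosomal stalk, stood at 3229, 3248 and 3240 CPM with DMSO and at 3988, 3958 and 3862 CPM with AMG900, RPS2 rose from 4033 ± 168 to 5962 ± 232 CPM and RPS25 from 721 ± 77.4 to 1254 ± 101 CPM. Beside RPL39, the genes that fell included RPL7, at 679 ± 11.6 and 414 ± 57.7 CPM, and RPS6, at 1.25-fold lower. Ribosomal protein genes have many processed copies, so their counts carry the uncertainty described above. The genes that build ribosomes moved oppositely, 23 of 56 (41.1%) down and 6 up, with WDR75 2.50-fold lower and nucleolin, NCL, 1.19-fold lower, whereas FBL was not called. Mitochondrial ribosomal proteins split 13 up and 13 down of 75 (17.3% each way), near the shares over all tested genes, and 18 and 16 after the GC adjustment.

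Protein folding and turnover changed in both directions. Some of these lists lay near the shares over all tested genes, 16.2% up and 18.8% down. Autophagy genes had 20.5% up and 23.1% down, and proteasome subunits 17.9% and 28.2%. Of 40 heat shock proteins 10 rose and 13 fell. The abundant chaperone HSPA8 stood at 676, 811 and 764 CPM with DMSO and at 288, 303 and 342 CPM with AMG900, HSP90AA1 fell from 422 ± 64.0 to 248 ± 23.8 CPM and the mitochondrial chaperonin HSPD1 from 373 ± 33.1 to 230 ± 30.1 CPM. The small heat shock protein gene CRYAB, read after its values were seen, rose from 0.120 ± 0.00507 to 1.77 ± 0.0600 CPM. Of 44 ER chaperones and unfolded protein response genes 16 fell and 8 rose, or 14 each way after the GC adjustment, and HSPA5 (BiP) was not called at 1519 ± 26.5 and 1474 ± 25.1 CPM. Proteasome subunits had 11 down and 7 up of 39, lysosomal genes 15 up and 9 down of 57 (10 up and 15 down after the GC adjustment), V-ATPase subunits 7 each way of 22 (6 up and 5 down adjusted), and autophagy genes 8 up and 9 down of 39 (9 up and 14 down adjusted). ATG5, needed to extend the autophagosome membrane, was 2.65-fold lower, LAMP2 2.18-fold lower, and SQSTM1 was not called.

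Nuclear transport genes were mostly lower. Of 45 nuclear pore and import genes 25 (55.6%) fell and 5 rose, with a median of -0.32 and a GC-adjusted median of -0.21 with 26 genes down. The export receptor XPO1 stood at 50.5, 61.6 and 64.9 CPM with DMSO and at 22.4, 22.3 and 26.4 CPM with AMG900, the scaffold NUP155 fell from 8.46 ± 0.564 to 3.19 ± 0.438 CPM and RANBP2 was 2.36-fold lower. KPNA2, an importin, was not called. Of 50 splicing factors 15 fell and 4 rose, or 16 and 13 after the GC adjustment. SRSF3 went from 182 ± 30.6 to 87.4 ± 5.06 CPM and HNRNPA1 was not called. Of 37 genes of DNA methylation and polycomb repression 14 fell and 2 rose, among them SUZ12 at 2.74-fold lower, EZH2 at 1.27-fold lower and the maintenance methyltransferase DNMT1 at 1.15-fold lower.

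The study from which the libraries come concerns invasion, for which matrix, adhesion and proteolysis genes are the usual readouts. Of 28 collagen chains 8 went each way, and 5 rose and 11 fell after the GC adjustment. COL3A1 stood at 180, 156 and 163 CPM with DMSO and at 73.2, 75.1 and 79.8 CPM with AMG900, and COL1A1 fell from 2312 ± 306 to 1547 ± 21.3 CPM. COL6A1 and COL6A2 rose 1.40-fold and 1.61-fold, and COL4A2 1.68-fold. Collagen processing genes had 9 up and 7 down of 32, with the lysyl hydroxylase PLOD2 2.49-fold lower and lysyl oxidase, LOX, 1.29-fold lower, but LOX had a GC-adjusted log2 fold change of 0.02. After the GC adjustment that list held 2 up and 8 down. Laminins and basement membrane genes had 6 up and 5 down of 21, or 3 and 8 after the GC adjustment, LAMB3 rising from 23.9 ± 0.387 to 36.7 ± 0.891 CPM.

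Integrins, the receptors for matrix, had 10 down and 7 up of 27, or 11 and 3 after the GC adjustment. ITGAV, the alpha-v chain that pairs with several beta chains, stood at 22.8, 25.6 and 26.6 CPM with DMSO and at 7.67, 9.02 and 8.97 CPM with AMG900, and ITGB1, the most widely shared beta chain, fell from 85.7 ± 8.67 to 43.7 ± 2.32 CPM. ITGB4 of hemidesmosomes rose from 3.09 ± 0.438 to 7.69 ± 0.225 CPM although its partner ITGA6 was 1.82-fold lower. Among 42 other matrix genes 12 rose and 13 fell, or 9 and 14 after the GC adjustment. Thrombospondin 1, THBS1, stood at 188, 213 and 208 CPM and then at 71.4, 74.1 and 69.0 CPM, periostin, POSTN, was 2.80-fold lower, and the proteoglycan biglycan, BGN, rose from 3.57 ± 0.195 to 10.9 ± 1.29 CPM. FN1 was not called.

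Proteases and their inhibitors had 12 up and 6 down of 37. Collagenase MMP1 rose from 0.684 ± 0.143 to 3.44 ± 0.248 CPM, urokinase, PLAU, from 306 ± 5.53 to 453 ± 9.11 CPM, and the membrane metalloproteinase MMP14 from 350 ± 6.15 to 448 ± 6.14 CPM. The inhibitor TIMP1 rose with them, at 926, 718 and 775 CPM with DMSO and 1382, 1346 and 1310 CPM with AMG900. ADAM9 was 2.69-fold lower.

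Regulators of the epithelial to mesenchymal transition went 5 up and 5 down of 24, or 4 up and 3 down after the GC adjustment. N-cadherin, CDH2, stood at 447, 494 and 462 CPM with DMSO and at 270, 271 and 274 CPM with AMG900, VIM rose from 2440 ± 167 to 3032 ± 32.0 CPM, and CDH1 was at most 1.04 CPM in any library and not called. Desmosome and tight junction genes had 8 up and 6 down of 36, or 6 and 7 after the GC adjustment. CLDN4 rose from 7.39 ± 0.974 to 22.0 ± 1.05 CPM, CLDN3 from 8.39 ± 0.647 to 17.6 ± 1.05 CPM and CLDN7 from 1.18 ± 0.256 to 2.56 ± 0.457 CPM. Of 15 epithelial keratins 7 (46.7%) rose and none fell in edgeR (adjusted p under 0.01), at a median of 0.54, or 0.23 with 6 up after the GC adjustment. None was lower at an unadjusted p under 0.05 or in DESeq2. The abundant KRT8 and KRT18 were not called, so the increases lay in less expressed members, such as KRT17 and KRT81, the latter at 3.53 ± 0.376 and 8.76 ± 0.179 CPM.

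Contractile genes controlled by serum response factor had 9 up and 10 down of 40, or 5 and 14 after the GC adjustment. Beside CNN1, the myosin light chain MYL9 rose from 7.31 ± 0.327 to 15.7 ± 0.565 CPM and TAGLN from 1.44 ± 0.330 to 2.84 ± 0.558 CPM, while ACTA2 was not called and CRIM1 was 2.73-fold lower. Tubulin and microtubule genes had 9 up and 6 down of 41, with TUBA1A at 461 ± 53.8 and 292 ± 26.4 CPM. Cilium genes had 3 up and 9 down of 57, shares below the background on both sides, and 9 up and 5 down after the GC adjustment.

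Of 37 YAP and Hippo genes 14 (37.8%) fell and 7 rose. CTGF, a YAP target, stood at 126, 115 and 126 CPM with DMSO and at 54.8, 55.9 and 54.9 CPM with AMG900, ANKRD1 was 1.57-fold lower and IGFBP3 rose 2.01-fold. TGF-beta and BMP genes had 15 down and 7 up of 45: the ligand TGFB2 fell from 30.6 ± 3.90 to 17.7 ± 0.902 CPM and the BMP antagonist GREM1 from 26.9 ± 2.92 to 11.7 ± 1.64 CPM. Of 52 AKT and mTOR components 10 (19.2%) rose and 8 (15.4%) fell, near the shares over all tested genes. After the GC adjustment 5 rose and 14 fell. MTOR was not called, at a log2 fold change of -0.07, nor was AKT1 unless adjusted for GC content (-0.32), while the catalytic subunit PIK3CB was 2.72-fold lower, EIF4E 2.45-fold lower and RICTOR 2.10-fold lower. Protein phosphorylation was not measured.

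ErbB receptors and their ligands had 7 down and 2 up of 26, with the ligand EREG 1.80-fold lower. ERK feedback genes had 7 up and 4 down of 26, or 6 and 9 after the GC adjustment: DUSP6 and SPRY4 were not called and SPRED1 was 2.44-fold lower. Wnt genes went 8 each way of 41 (19.5%), near the shares over all tested genes, or 4 up and 14 down after the GC adjustment. WNT5A fell from 17.0 ± 1.05 to 8.35 ± 0.281 CPM. Notch genes had 10 up and 5 down of 34, HES1 and HEY2 rising 1.25-fold and 1.71-fold, but 5 up and 9 down after the GC adjustment. Growth factors of the FGF, PDGF and VEGF families had 9 up and 5 down of 34, or 7 and 9 after the GC adjustment. VEGFA was not called, PDGFB was 2.36-fold higher and ANGPT1 3.51-fold lower. Semaphorins, ephrins and related guidance genes had 14 up and 7 down of 49, and 7 up and 14 down after the adjustment. EFNA1 rose from 2.96 ± 0.246 to 5.03 ± 0.192 CPM and EPHA2 was not called.

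Of 22 tested lung and endoderm lineage factors 3 rose and 2 fell, or 5 and 3 after the GC adjustment. ELF3, an epithelial ETS factor, rose from 23.0 ± 2.91 to 43.1 ± 0.952 CPM, whereas SOX4 and GATA6 were 1.44-fold and 1.32-fold lower. Among families grouped by name alone, zinc finger genes had 35 of 397 (8.82%) each way, below the background on both sides (44 up and 48 down after the GC adjustment). Solute carriers had 44 up and 57 down of 248 (20 and 71 after the GC adjustment). TMEM genes had 36 up and 35 down of 197 (18.3% and 17.8%), near the shares over all tested genes. Of 176 LINC genes 33 (18.75%) were up, near the 16.2% over all tested genes, at a median of 0.36. Only 6 (3.41%) were down, against 18.8% over all tested genes. Of 28 abundant long noncoding RNAs 13 (46.4%) were up and 4 (14.3%) down. MALAT1 rose from 64.9 ± 1.44 to 89.1 ± 7.82 CPM, NEAT1 was not called, and the imprinted H19 rose from 0.230 ± 0.0775 to 1.50 ± 0.191 CPM. RMRP, the RNA of the RNase MRP complex, was the 1 called gene whose groups overlapped, at 3.03, 3.65 and 8.23 CPM with DMSO and 7.91, 16.8 and 32.3 CPM with AMG900 (edgeR adjusted p = 0.00632). Among 8 tested small nucleolar RNAs 3 fell (2 in DESeq2), and none of the 3 with a known GC content was called after adjustment for it, and among 20 microRNA entries 2 went each way.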

How the data were processed

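RNA was sequenced from 3 DMSO and 3 AMG900 (0.1 µM, 48 h) dishes of H1792 cells. The deposited values are raw counts per gene symbol made by the authors, and the submitters' processing notes name STAR, HTSeq and hg19 (GRCh37), with versions, annotation and strand setting not given in the sources used here. Libraries held 42810734 to 79984064 counts, and the 28 rows with dates in place of symbols took up 0.101% to 0.117% of them and were left out. Libraries of the other cell line were not used here.

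Counts were tested with the edgeR 4.0.16 quasi-likelihood test (R 4.3.3, limma 3.58.1) on TMM factors after filterByExpr, with Benjamini-Hochberg adjustment over 15017 genes and a threshold of 0.01. CPM values use the same factors. DESeq2 1.42.0, which the study used at the same threshold, other scalings and filters, each library left out in turn, a block for replicate number, and offsets for GC content (natural spline with 5 degrees of freedom per library) or for GC content and transcript length were alternatives. GC content came from GENCODE transcripts for GRCh37 and was known for 95.7% of tested genes, matched by symbol or older symbol. The fit without processed pseudogenes was chosen after seeing the data. Scripts were tested on simulated counts in which few genes truly changed. Without a GC trend the fit recovered most changed genes with few false calls. With a simulated GC trend, calls due to the trend were counted as false. By that definition most calls of the fit without GC offsets were false, and few were with offsets. Tables and figures were made with Python 3.11.15, pandas 2.3.3 and matplotlib 3.10.9.

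Named genes were the 20 largest increases and the 20 largest decreases among called genes that averaged 100 counts or more per library and whose groups did not overlap, the anchor genes of each list, up to 4 called members of each list with the largest absolute log2 fold change and the same mean count, and the aurora kinases. The members and lists were chosen with earlier results of these data known. A list was described by its counts and median only and was not tested. Coordinates of genes are from hg19 and promoter windows from RefSeq on GRCh38.p14. Results for some genes are not reported here.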

Additional observations from a re-analysis of the deposited data

How the results depend on the processing

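The number of called genes moved with threshold and number of libraries more than with scaling. In place of 2439 upregulated and 2827 downregulated genes, DESeq2 called 2623 and 3220, edgeR with DESeq2 size factors 2376 and 2880, edgeR on total counts 1859 and 3229, no count filter 2518 and 3099, and a minimum of 10 counts in every library 2524 and 2705. A threshold of 0.05 gave 3689 upregulated and 3875 downregulated genes, and a minimum of 2-fold gave 476 and 781. GC correction left 2177 and 3257, of which 1339 and 1841 were called in the same direction without it, while 9 genes were called in the opposite direction. Correction for GC content and length gave 2151 and 3270.

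Without 1 library the counts ran from 1382 to 3047 upregulated and from 1853 to 3656 downregulated. Those that moved a count by more than 1.5 times were AMG900 replicate 1 (1382 up and 1853 down without it), AMG900 replicate 2 (1464 up) and DMSO replicate 3 (1524 up), and DMSO replicate 1 gave the highest counts when left out. Calls of AURKB and EZH2 were lost without any single library other than DMSO replicate 1, and those of CXCL5, DNMT1, NACA, SCD, SLC2A1 and UBE2M without DMSO replicate 3 or any AMG900 library. CDH5 was lost without DMSO replicate 1 or 3 or AMG900 replicate 2 or 3, TAGLN without DMSO replicate 2 or 3 or AMG900 replicate 1 or 2, IFIT5 without DMSO replicate 3 or AMG900 replicate 2 or 3, RPS6 and SMC3 without DMSO replicate 3 or AMG900 replicate 1 or 2, and RMRP without DMSO replicate 2 or AMG900 replicate 2 or 3. ATR was lost without DMSO replicate 3, COL4A2 without AMG900 replicate 1 or 2, CA9 and HES1 without AMG900 replicate 1 or 3, ANGPT1, CLDN7 and KIF20A without AMG900 replicate 1, ACTG1 and NCL without AMG900 replicate 2, and PECAM1 without AMG900 replicate 3. No named gene changed sign as a called gene in these fits.

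Replicate numbers are shared by the groups. Deviations of same-numbered libraries correlated at -0.06, 0.04 and -0.06, and those of differently numbered libraries at -0.05 to 0.11. With 3 libraries per group these values cannot show whether same-numbered dishes were handled together. A replicate block gave 2170 upregulated and 2618 downregulated genes, and with GC correction 1878 and 2867. The block alone took away the calls of AURKB, CXCL5, DNMT1, SLC2A1 and UBE2M and of no other named gene.

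Some named genes changed sign. With GC correction the log2 fold changes were 0.24 for CCNB1, 0.31 for CXCL5, 0.017 for LOX, 0.069 for SMC3, -0.16 for SQSTM1 and -0.14 for UBE2M. With GC content and length they were -0.066 for AURKB, 0.24 for CXCL5, -0.18 for FBL, -0.16 for KRT18, -0.18 for KRT7, -0.19 for KRT8, 0.069 for LOX, 0.12 for SMC3, 0.026 for STAG2 and -0.22 for UBE2M. With the block and GC correction together they were 0.31 for CXCL5, 0.016 for LOX, 0.071 for SMC3 and -0.14 for UBE2M. Besides, 16 named genes lost their call and 10 gained one under GC correction. The median of 16 of 73 lists changed sign under GC correction, 21 with length added and 10 on total counts, where the median over all genes was -0.06. The cause was not tested.

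Depth was at least 42810734 counts per library, and the number of dishes, 3 per group, limits precision. Counting also limits it for genes with few counts, such as CNN1 at 8 to 20 counts in DMSO libraries. Which limit weighs more was not tested. Levels near 1 CPM, reads shared between copies and parents, and the dependence of fold change on GC content limit single values.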
